A study of Drosophila melanogaster with 12 samples.

Results

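The cells of slbo mutant ovaries captured by a slbo-driven surface tag, called migratory cells, were compared here with the cells left uncaptured, called nonmigratory cells. The comparison rests on the 6 arrays of the series whose titles name a slbo fraction, 3 of migratory and 3 of nonmigratory cells, of 12 arrays in all. The mutant females had slbo-Gal4 with the allele slboe7b on one homologue and UAS-mCD8-GFP with the allele slboLy6 on the other. The other 6 arrays held both fractions of wild-type females with slbo-Gal4, UAS-mCD8-GFP/+, 3 arrays of each, so every group of the series shared the driver and the tag. Females were aged 2 to 7 days, and the tissue was the ovary. For 1 mutant nonmigratory array the labels gave no age or tissue, and for another the genotype is known from the title alone. Tagged cells were captured on magnetic beads with an antibody to mouse CD8, and the nonmigratory fraction was what the beads did not take up. It was therefore a mixed remainder of the dissected ovary, not shown to hold every other cell or to be free of tagged cells. The word migratory names the captured fraction, not an observed movement.

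Border cells are a small cluster of follicle cells that leaves the epithelium at the anterior end of the egg chamber and crawls between the nurse cells to the oocyte. The slbo gene encodes the C/EBP transcription factor that these cells need in order to move, and slbo-Gal4 is active in border cells and later in other groups of follicle cells, among them those that make the eggshell. Alleles that lower slbo leave border cells specified but slow or unable to migrate, which raises the question of what still sets the tagged cells apart from their neighbours when slbo is reduced.

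Each array gave a MAS5 signal, the brightness of a probe set on a linear scale, and all arrays had been scaled to the same trimmed mean. Replicates of a group correlated at 0.924 to 0.958 on the log2 scale. The ratio of the 5' to the 3' GAPDH probe set, a measure of how complete the copied transcripts were, was 0.0932 to 0.150 in mutant migratory cells and 0.134 to 0.184 in mutant nonmigratory cells, with overlap. In wild type it was 0.0783 to 0.0947 in migratory and 0.158 to 0.200 in nonmigratory cells, without overlap. Summed signals of gut marker genes were 44103 to 59884 in mutant migratory and 21417 to 29535 in mutant nonmigratory cells, against 6716 to 17869 in wild-type migratory and 6221 to 13969 in wild-type nonmigratory cells. The part of RNA quality and of other cell types in the gene differences was not tested. In a bulk fraction, fewer cells of a type and less RNA per cell cannot be told apart.

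The slbo transcript itself was low in both mutant fractions. Its signals were 44.3, 51.4 and 35.1 in mutant migratory cells and 87.3, 19.0 and 82.9 in mutant nonmigratory cells, against 275.2, 197.3 and 167.2 in wild-type migratory and 114.8, 113.1 and 148.9 in wild-type nonmigratory cells. The mutant fractions overlapped through nonmigratory replicate 2, which had the lowest value of all. The difference between the mutant fractions, with 3 arrays each, was log2 -0.27 (SE 0.404, limma adjusted p = 0.758), and its difference from the wild-type contrast was -0.98 with a 95% interval from -2.20 to 0.24. Between the migratory cells of the genotypes slbo was lower in the mutant (log2 -2.09, adjusted p = 0.0132). On the mutant migratory arrays the 95th percentile of control probe sets for absent transcripts was 40.5, 50.9 and 33.4, just below the slbo signals. The size of this difference is therefore limited by background. Transcript from the mutant alleles may still bind the probe set, whose place relative to the lesions was not known here.

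Mutant migratory cells still differed from mutant nonmigratory cells in many genes. Of the eggshell list 11 of 23 genes were higher, of the junction list 10 of 30 and of the gut list 11 of 40, with none lower in any of these. Of the ribosome assembly list 21 of 38 genes were lower, of mitochondrial import 10 of 18 and of oxidative phosphorylation 27 of 50, with none higher. The single genes yellow-k and goe were higher by more than 2 log2 units, and Rtc1, Irp-1B and Shmt lower by more than 2. The migratory signals of Rtc1 and Irp-1B lay near those of control probe sets for absent transcripts. Of 9000 features tested, 801 were called at a Benjamini-Hochberg adjusted p below 0.05 (8.9%), 334 of them higher (3.71%) and 467 lower (5.19%) in migratory cells. The median log2 difference was 1.0 among the higher calls and -0.81 among the lower calls, against 0.03 over all features. At least 2-fold differences were found for 169 of the higher and 132 of the lower features. The groups did not overlap for 2678 features (29.8%). The count of calls fell to 373 without nonmigratory replicate 1, to 435 without nonmigratory replicate 2 and to 435 without migratory replicate 2.

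**Figure D1:**
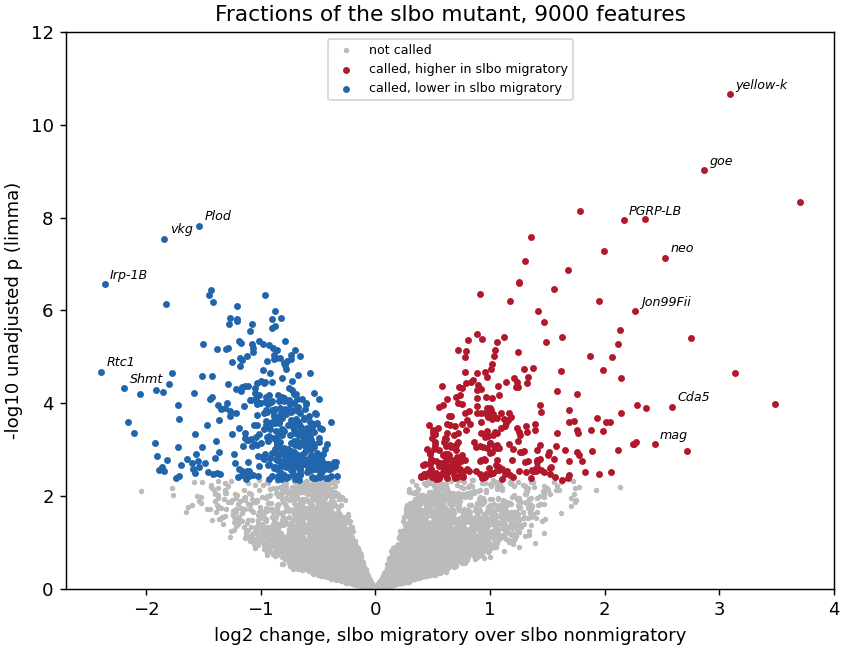
Log2 difference of mutant migratory over mutant nonmigratory cells (horizontal axis) against the negative log10 of the unadjusted limma p (vertical axis) for 9000 features. Red points are the 334 features called higher and blue points the 467 called lower at an adjusted p below 0.05, and grey points were not called.

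The member of the yellow family of secreted proteins, yellow-k, was among the genes with the largest differences. Its signals were 954.4, 965.0 and 1074.2 in mutant migratory cells and 100.6, 134.1 and 99.1 in mutant nonmigratory cells. All migratory arrays lay far above all nonmigratory ones, an 8.53-fold difference (log2 3.09, SE 0.173, adjusted p = 1.96e-07). The wild-type difference was 3.40, so that the contrasts of the genotypes differed by -0.31, with a 95% interval from -0.83 to 0.21. The neprilysin-like gene goe had 723.2, 932.1 and 833.4 in mutant migratory and 118.0, 134.5 and 75.3 in mutant nonmigratory cells (log2 2.87, SE 0.210, adjusted p = 4.27e-06). It too showed no overlap, which was a condition of the choice of both genes. The interval of the difference of goe between genotypes ran from -0.68 to 0.59.

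Cda5, which encodes a chitin deacetylase, had signals of 183.0, 172.2 and 181.3 in mutant migratory cells and 16.2, 64.4 and 10 in nonmigratory cells. The mean of its nonmigratory arrays did not exceed 39.2, the mean over arrays of the 95th percentile of control probe sets for absent transcripts. Such folds are given as bounds, here at least 3.48-fold (adjusted p = 0.00516), and the other probe set of Cda5 gave a log2 difference of 1.82. The zona pellucida domain gene neo had 400.2, 407.4 and 291.5 in mutant migratory and 45.6, 52.0 and 76.3 in mutant nonmigratory cells (log2 2.53, SE 0.256, adjusted p = 5.96e-05). In wild type neo averaged 106 ± 9.82 in migratory and 53.3 ± 13.4 in nonmigratory cells (SD, n = 3 each). The contrast was 1.61 larger in the mutant, with an unadjusted p of 0.000492 and an adjusted p of 0.425. The peptidoglycan recognition gene PGRP-LB, whose product degrades bacterial cell wall fragments, had 486.1, 535.2 and 689.1 in mutant migratory and 141.4, 94.3 and 128.7 in mutant nonmigratory cells (log2 2.17, SE 0.191, adjusted p = 1.70e-05). The cytochrome P450 gene Cyp6d5 averaged 297 ± 62.2 in mutant migratory and 63.3 ± 16.1 in mutant nonmigratory cells (SD, n = 3 each; log2 2.11, adjusted p = 0.000832).

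**Figure D2:**
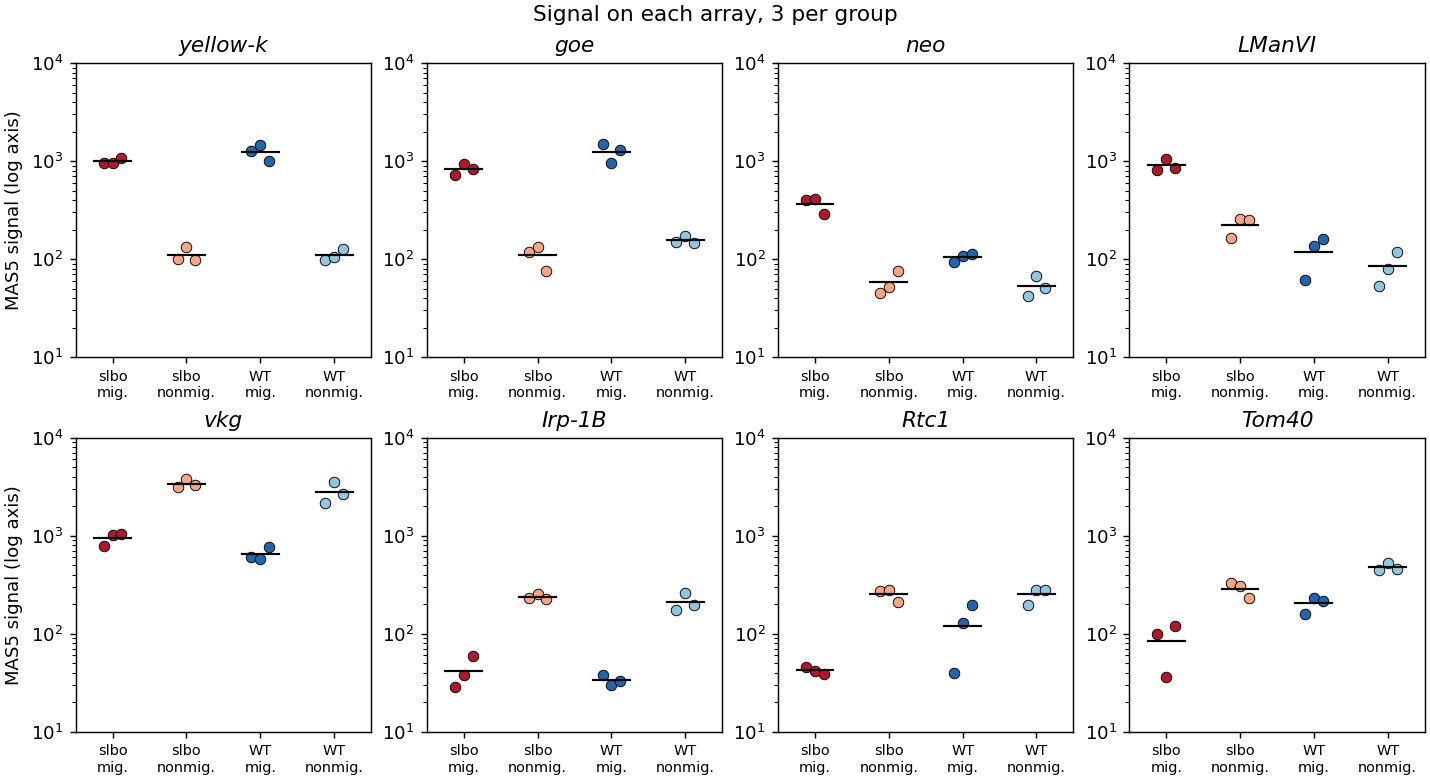
MAS5 signal (log axis) of 8 genes on every array, 3 per group, with black bars at group means, for slbo migratory, slbo nonmigratory, WT migratory and WT nonmigratory cells. The upper row shows genes higher and the lower row genes lower in mutant migratory cells. In none of the 8 do the mutant fractions overlap, which was a condition of their choice.

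Genes of the eggshell were higher in mutant migratory cells. Of 23 chorion, vitelline membrane and eggshell assembly genes, 11 were called higher (3.71% of all features were), none lower and 12 not called. The median log2 difference was 0.86, and all 23 differences were positive. Fcp3C, which encodes a follicle cell protein, had signals of 1441.1, 2142.2 and 1825.6 in mutant migratory and 449.1, 488.7 and 602.2 in mutant nonmigratory cells (log2 1.79, SE 0.152, adjusted p = 1.64e-05). The terminal patterning gene tsl, which is expressed by border cells and polar follicle cells, had 107.9, 128.2 and 110.3 in mutant migratory and 39.1, 20.6 and 11.6 in mutant nonmigratory cells, at least 2.69-fold higher (adjusted p = 0.00119). The chorion gene Cp36 averaged 9526 ± 2265 in migratory and 4769 ± 649 in nonmigratory cells (SD, n = 3 each; log2 0.98, adjusted p = 0.00221). The vitelline membrane gene psd had a log2 difference of 0.86 (adjusted p = 0.00250). The calls came to 2 when the GAPDH ratio was a covariate. In wild type 8 of the 23 were called higher, with a median of 0.46, and 7 were called in both genotypes.

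In the yellow family, whose members include pigment and eggshell proteins, 2 of 10 tested genes of 13 measured were called higher (3.71% of all features were) and none lower (median log2 0.66). Beside yellow-k this was yellow-g, a gene of the vitelline membrane, with 998.0, 1436.5 and 1136.4 in mutant migratory and 433.0, 621.0 and 696.9 in mutant nonmigratory cells (log2 1.03, SE 0.211, adjusted p = 0.00715). The groups of yellow-g did not overlap, nor did 29.8% of all features. The wild-type difference of yellow-g was 1.0. The same 2 genes were called higher in wild type.

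Genes of cell junctions were the morphogenetic group with the most calls. Of 30 junction and polarity genes 10 were called higher (3.71% of all features were), none lower and 20 not called. The median log2 difference was 0.33, and 22 differences were positive. The called genes were mostly those of the septate junctions that seal the epithelium, with the apical polarity gene crb (log2 0.65) beside them. Lac, a cell adhesion gene of septate junctions, had 774.8, 543.5 and 654.7 in mutant migratory and 279.5, 279.4 and 293.8 in mutant nonmigratory cells (log2 1.17, SE 0.141, adjusted p = 0.000242). The claudin gene kune had 347.0, 456.0 and 327.3 in mutant migratory and 168.5, 161.7 and 140.7 in mutant nonmigratory cells (log2 1.21, adjusted p = 0.00230). The contactin gene Cont (log2 1.24) and the tricellular junction gene Gli (log2 0.78) were called as well, and none of these 4 genes overlapped between the fractions. They were chosen for the lowest p of the list, and 29.8% of all features did not overlap. Among the remaining calls were the septate junction genes pck (log2 1.13), sinu (log2 1.08), Nrx-IV (log2 0.88) and Tsp2A (log2 0.62). The adherens junction genes shg, which encodes E-cadherin, and alpha-Cat were not called (log2 -0.14 and 0.20). In wild type 15 of the 30 were called higher (median 0.66), 9 of them in both genotypes. Without mutant nonmigratory replicate 2, 5 of the 30 were called, the fewest of any fit that left out 1 array, and 5 were called with the GAPDH ratio as a covariate.

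The lists of the cytoskeleton and of border cell movement held few calls, where 8.9% of all features were called (3.71% higher and 5.19% lower). Whether their counts depart from these shares was not tested. Of 26 tested actin and myosin genes of 27 measured, 2 were called higher and none lower (median 0.28, 0.38 in wild type, where 5 were called higher). The actin monomer-binding gene twf had 228.0, 235.5 and 186.7 in mutant migratory and 93.9, 87.9 and 98.9 in mutant nonmigratory cells (log2 1.14, adjusted p = 0.00840). The actin-branching regulator Cortactin averaged 358 ± 23.9 in migratory and 236 ± 37 in nonmigratory cells (SD, n = 3 each; log2 0.59, adjusted p = 0.0331). The Cortactin call was lost in 9 of 24 alternative fits, among them every fit that left out a mutant migratory array. Of 28 tested border cell migration genes of 31 measured none was called, with a median of 0.04, while 4 were called higher in wild type (median 0.19). At an unadjusted p the lowest were the EGFR ligand gene Krn (log2 1.10, SE 0.349, adjusted p = 0.0642) and the zinc finger gene jing (log2 -1.15, SE 0.369, adjusted p = 0.0683). The other probe set of jing gave -0.12. The 4 wild-type calls were sn, which encodes fascin, l(2)gl, alpha-Cat and p120ctn. Their mutant differences were 0.66, 0.11, 0.20 and -0.14, against 0.87, 1.10, 0.66 and 0.66 in wild type. In the direct limma test between genotypes 4 genes of the list had an unadjusted p below 0.05. No gene of this or any other list passed after adjustment, so a call in wild type alone does not show a loss in the mutant.

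Both collagen IV genes were lower in mutant migratory cells. Of 21 tested basement membrane and integrin genes of 23 measured, 3 were lower, 1 was higher and 17 were not called (median -0.26). Of all features 5.19% were called lower and 3.71% higher. The collagen IV gene vkg had 790.0, 1014.2 and 1041.4 in mutant migratory and 3145.2, 3805.8 and 3254.3 in mutant nonmigratory cells (log2 -1.84, SE 0.174, adjusted p = 2.82e-05). Col4a1, the other collagen IV gene, had 1300.5, 1120.3 and 1354.5 in migratory and 3361.7, 3562.6 and 3245.1 in nonmigratory cells (log2 -1.43, SE 0.164, adjusted p = 0.000179). The lysyl hydroxylase gene Plod, which modifies collagen, had 668.5, 532.7 and 768.7 in migratory and 1857.5, 1900.6 and 1921.3 in nonmigratory cells (log2 -1.53, SE 0.138, adjusted p = 1.91e-05). These 3 fell without any overlap between fractions, which was a condition of the choice of vkg. Of all features 29.8% did not overlap. The prolyl 4-hydroxylase gene PH4alphaEFB, which also acts on collagen, was higher in migratory cells (log2 0.63, adjusted p = 0.00420), with 0.30 from its other probe set. All 4 were called in the same direction in wild type, where vkg had -2.07, and the interval for the difference in vkg ran from -0.30 to 0.75.

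Mitochondrial genes were lower in mutant migratory cells across several functions. Of 18 tested import and chaperone genes of 22 measured 10 were called lower (5.19% of all features were) and none higher, with a median log2 difference of -0.78, against -0.67 in wild type. The import pore gene Tom40 had 99.5, 36.5 and 119.8 in mutant migratory and 326.0, 307.2 and 233.5 in mutant nonmigratory cells (log2 -1.80, SE 0.310, adjusted p = 0.00270). The prohibitin gene Phb1 had 592.1, 565.9 and 682.1 in migratory and 1488.4, 1204.2 and 1213.0 in nonmigratory cells (log2 -1.07, SE 0.142, adjusted p = 0.000481). The import receptor genes Tom20 (log2 -0.90) and mge (log2 -1.09) and the second prohibitin gene Phb2 (log2 -0.77) fell as well, and the fractions of these 5 genes did not overlap. Lack of overlap was a condition of the choice of Tom40, and it held for 29.8% of all features. All 10 were also called lower in wild type, and 4 were called with the GAPDH ratio as a covariate.

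Of 50 tested oxidative phosphorylation genes of 51 measured, 27 were called lower (5.19% of all features were), none higher and 23 not called (median -0.46, and -0.40 in wild type with 21 lower). The succinate dehydrogenase subunit gene SdhB had 817.1, 503.9 and 703.7 in mutant migratory and 1305.6, 1320.6 and 1157.2 in mutant nonmigratory cells (log2 -0.92, SE 0.151, adjusted p = 0.00192). The ATP synthase subunit genes ATPsyngamma (log2 -0.68), ATPsynB (log2 -0.79) and ATPsynO (log2 -0.65) were also lower without overlap, where 29.8% of all features did not overlap. The differences were under 2-fold for every one of the 27, and the count of calls depended on the fit. It was 7 without mutant nonmigratory replicate 1 and 1 with the GAPDH ratio as a covariate, while the median of the list stayed between -0.51 and -0.42 in all fits.

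Of 64 mitochondrial ribosomal protein genes 18 were called lower (5.19% of all features were), none higher and 46 not called. Of the 64 differences 63 were negative (median -0.50, against -0.53 in wild type with 27 lower). mRpL20 had 80.7, 70.7 and 153.2 in mutant migratory and 261.9, 311.7 and 242.5 in mutant nonmigratory cells (log2 -1.43, SE 0.238, adjusted p = 0.00218). mRpL21 had 65.6, 123.5 and 49.4 in migratory and 230.1, 220.3 and 195.7 in nonmigratory cells (log2 -1.45, adjusted p = 0.00419), while its wild-type difference was -0.30. mRpL9 (log2 -0.80) and mRpS35 (log2 -0.94) fell too. The count was 8 without mutant nonmigratory replicate 2, and 1 with the GAPDH ratio as a covariate.

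Genes that build ribosomes were lower, while the genes for cytosolic ribosomal proteins were not called. Of 38 ribosome assembly and nucleolus genes 21 were called lower (5.19% of all features were) and none higher. The median log2 difference was -0.92, against -1.0 in wild type with 18 lower. The genes NHP2 and Gar1 encode core proteins of the particles that guide pseudouridylation. NHP2 had 187.2, 144.3 and 193.9 in mutant migratory and 501.8, 510.2 and 417.2 in mutant nonmigratory cells (log2 -1.41, SE 0.170, adjusted p = 0.000243), and Gar1 gave a log2 difference of -1.21. Fibrillarin, Fib, the methyltransferase of the nucleolus, had 1584.6, 1148.3 and 1641.8 in migratory and 3721.5, 3314.6 and 2988.1 in nonmigratory cells (log2 -1.20, adjusted p = 0.000424). The nucleolar gene mod had a log2 difference of -1.50. These 4 genes showed no overlap between fractions in the mutant. They were chosen for the lowest p of the list, and 29.8% of all features did not overlap. Rtc1, whose yeast relative acts in ribosomal RNA processing, had 45.8, 41.9 and 39.1 in migratory and 272.7, 282.2 and 210.1 in nonmigratory cells (log2 -2.39, SE 0.389, adjusted p = 0.00188). Its migratory mean of 42.3 was just above the absent control level of 39.2, so the size of the difference is limited by background. Outside the list, the ribosomal RNA methyltransferase gene Nsun5 was at least 2.97-fold lower (adjusted p = 0.00192). Of the 38 genes 15 were called lower in both genotypes, and 12 were called in the mutant without nonmigratory replicate 1 and 6 with the GAPDH ratio as a covariate. None of 31 tested cytosolic ribosomal protein genes of 33 measured was called (median -0.03, and -0.22 in wild type), the lowest p belonging to RpS27A (log2 -0.20, SE 0.107) and RpLP2 (log2 -0.17, SE 0.0967).

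**Figure D3:**
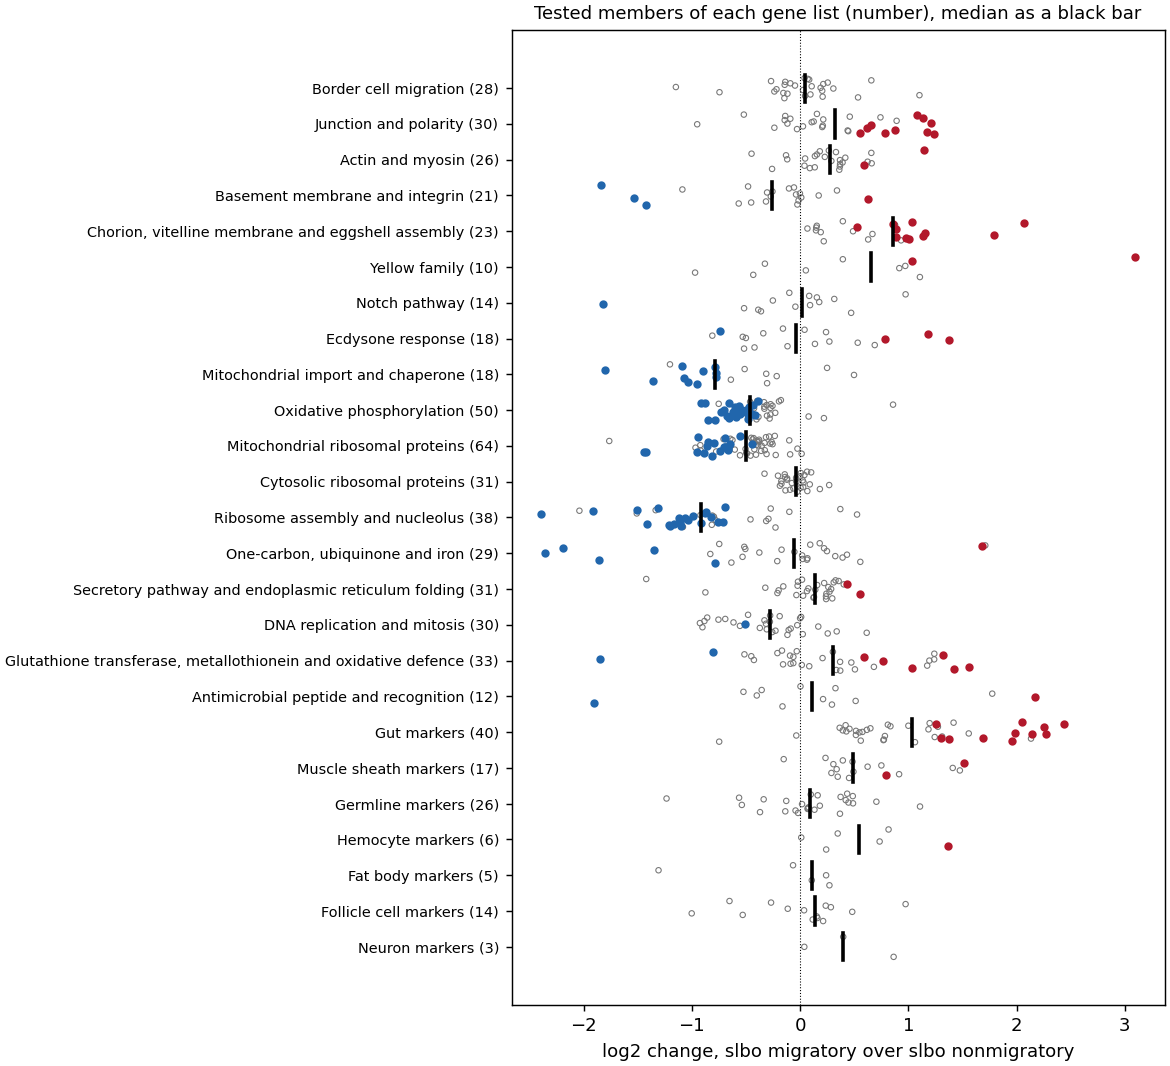
Log2 difference of mutant migratory over mutant nonmigratory cells for each tested member of 25 gene lists, the number of tested members in parentheses and the list median as a black bar. Filled red points were called higher, filled blue points called lower, and open points were not called. The filled points of the eggshell, junction and gut lists are all red, those of the mitochondrial and ribosome assembly lists all blue, and each of these lists also holds open points.

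Among 29 tested one-carbon, ubiquinone and iron genes of 33 measured, 5 were lower, 1 was higher and 23 were not called (median -0.05). Of all features 5.19% were called lower and 3.71% higher. The iron regulatory gene Irp-1B had 28.8, 38.2 and 58.9 in mutant migratory and 233.9, 254.7 and 228.1 in mutant nonmigratory cells (log2 -2.36, SE 0.265, adjusted p = 0.000151). Its mutant migratory mean of 42.0 was just above the absent control level of 39.2, so the size of the difference is limited by background. In wild type, where its migratory arrays averaged below the absent control level, it was at least 4.58-fold lower. Shmt, the serine hydroxymethyltransferase that feeds the folate cycle, had 56.7, 139.9 and 145.3 in mutant migratory and 463.6, 515.4 and 546.4 in mutant nonmigratory cells (log2 -2.19, SE 0.385, adjusted p = 0.00302). Ahcy, which recycles the product of methylation reactions, fell by 0.79 on the log2 scale, and the ubiquinone methyltransferase gene Coq5 was at least 2.33-fold lower (adjusted p = 0.00337). Tsf2, a transferrin needed at septate junctions, had 762.4, 882.5 and 1022.6 in migratory and 275.8, 228.0 and 314.3 in nonmigratory cells, the opposite direction (log2 1.68, SE 0.179, adjusted p = 9.34e-05). None of these 5 genes overlapped between the mutant fractions, nor did 29.8% of all features, and Irp-1B, Shmt and Coq5 were chosen among genes without overlap. In wild type the list again had 5 lower and 1 higher.

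The delta class glutathione transferase genes GstD2, GstD3 and GstD4 were higher in mutant migratory cells. Of 33 tested glutathione transferase, metallothionein and oxidative defence genes of 37 measured, 6 were higher, 2 were lower and 25 were not called (median 0.30). Of all features 3.71% were called higher and 5.19% lower. GstD4 had 373.8, 516.1 and 455.2 in migratory and 171.1, 134.7 and 135.7 in nonmigratory cells (log2 1.56, SE 0.179, adjusted p = 0.000179). GstD2 (log2 1.42) and GstD3 (log2 1.03) were higher too, and these 3 genes lie next to each other in the Release 6 plus ISO1 MT assembly, so that probe sets for related neighbours may share transcripts. The mitochondrial superoxide dismutase gene Sod2 had 471.7, 414.4 and 543.2 in migratory and 856.4, 850.3 and 800.6 in nonmigratory cells (log2 -0.81, adjusted p = 0.00226). In wild type 6 of the list were higher and 3 lower, with 6 called in the same direction in both genotypes.

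The signalling, cell cycle, secretory and antimicrobial lists held 1 to 4 calls each, where 8.9% of all features were called (3.71% higher and 5.19% lower). Such small counts were not tested against these shares and are no result about the lists. Of 14 tested Notch pathway genes of 18 measured, 1 was lower and none higher (median 0.02), and in wild type 4 were lower and 1 higher. The called gene was Hesr, of the family of transcriptional repressors that answer to Notch, with 60.8, 110.4 and 75.7 in mutant migratory and 368.0, 298.8 and 251.3 in mutant nonmigratory cells (log2 -1.82, SE 0.222, adjusted p = 0.000260). The groups were far apart, and the wild-type difference was -0.75. Of 18 tested ecdysone response genes of 20 measured, 3 were higher and 1 lower (median -0.04), the same counts as in wild type. ImpL2, which encodes an insulin-binding protein, averaged 3151 ± 224 in migratory and 1829 ± 106 in nonmigratory cells (SD, n = 3 each; log2 0.78, adjusted p = 0.00117). The nuclear receptor genes Hr4 (log2 1.37, with -0.12 from its other probe set) and ftz-f1 (log2 1.18) were higher, and the ecdysone synthesis gene spo was lower (log2 -0.74, adjusted p = 0.0235). The spo call was lost without migratory replicate 3 and without nonmigratory replicates 1 or 2. Of 30 tested DNA replication and mitosis genes of 33 measured, 1 was lower (median -0.28), the sliding clamp gene PCNA (log2 -0.51, SE 0.131, adjusted p = 0.0261), a call lost in 7 of 24 fits. Of 31 tested secretory pathway and endoplasmic reticulum folding genes of 32 measured, 2 were higher and 29 not called (median 0.14), against 13 higher in wild type (median 0.39). These were the coat gene betaCOP (log2 0.43, adjusted p = 0.0444) and the retrieval receptor gene KdelR (log2 0.56, adjusted p = 0.0467), lost in 13 and 12 of 24 fits. Of 12 tested antimicrobial peptide and recognition genes of 22 measured, PGRP-LB was higher and Drs lower (median 0.11). Drs, which encodes the antifungal peptide drosomycin, had 36.5, 35.6 and 21.9 in migratory and 171.3, 158.6 and 90.0 in nonmigratory cells, at least 2.93-fold lower (adjusted p = 0.0235). Its call was lost without migratory replicates 2 or 3 and without nonmigratory replicates 1 or 2.

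The remaining genes lowest in mutant migratory cells had mixed roles. The telomere capping gene HipHop was at least 2.04-fold lower (adjusted p = 0.0116), and this call was lost without migratory replicate 2 or nonmigratory replicate 1. The lipoprotein receptor-like gene cue had 130.7, 33.4 and 68.1 in migratory and 186.1, 315.1 and 179.8 in nonmigratory cells (log2 -1.59, adjusted p = 0.0352), lost in 7 of 24 fits. The nucleoside diphosphate kinase family gene nmdyn-D6 had 27.3, 120.2 and 100.9 in migratory and 233.2, 262.2 and 267.3 in nonmigratory cells (log2 -1.74, SE 0.513, adjusted p = 0.0474), lost in 11 of 24 fits. In wild type its difference was 0.71 and not called.

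Most markers of gut and muscle exceeded the absent control level in both mutant fractions, and those of the gut were higher in migratory cells. Of 40 tested gut genes of 43 measured, 11 were called higher (3.71% of all features were), none lower and 29 not called. The median log2 difference was 1.03, and 38 differences were positive. The serine protease gene Jon99Fii had 4037.8, 5168.0 and 4565.7 in mutant migratory and 976.9, 990.7 and 863.0 in mutant nonmigratory cells (log2 2.27, SE 0.285, adjusted p = 0.000323), from a probe set that can bind related transcripts. Its neighbour Jon99Fi had 426.2, 340.5 and 415.8 in migratory and 85.0, 81.4 and 82.9 in nonmigratory cells (log2 2.14, adjusted p = 0.00227). The mannosidase gene LManVI had 802.2, 1057.7 and 854.9 in mutant migratory and 164.9, 258.3 and 253.2 in mutant nonmigratory cells (log2 1.99, SE 0.321, adjusted p = 0.00176), with a difference between genotypes of 1.56 (95% interval from 0.59 to 2.53, unadjusted p = 0.00374). The acyl-CoA binding protein gene Acbp5 averaged 1362 ± 106 in mutant migratory and 350 ± 71.3 in mutant nonmigratory cells (SD, n = 3 each; log2 1.96, adjusted p = 0.000242). No mutant migratory array overlapped the nonmigratory arrays for these 4 genes, which was a condition of their choice. The lipase gene mag was at least 3.55-fold higher (adjusted p = 0.0161), a call lost without migratory replicate 2 or nonmigratory replicate 1. In wild type 4 of the 40 were called higher (median 0.22), all 4 also in the mutant. Of the 43 genes 41 exceeded the absent control level in mutant migratory and 37 in mutant nonmigratory cells, against 31 in each wild-type fraction. The count of gut calls was 6 without mutant migratory replicate 2 and 3 with the GAPDH ratio as a covariate.

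Muscle genes, which the contractile sheath of the ovary expresses, had summed signals of 11407 to 12795 in mutant migratory and 7032 to 9220 in mutant nonmigratory cells. Of 17 tested genes of 20 measured 2 were called higher (median 0.48, against 0.60 in wild type with 1 higher), and 17 of the 20 exceeded the absent control level in either mutant fraction. Over all features 3.71% were called higher. The small counts of muscle and hemocyte calls were not tested against this share and are no result about the lists. The arginine kinase gene Argk1 averaged 2141 ± 158 in migratory and 1232 ± 99.5 in nonmigratory cells (SD, n = 3 each; log2 0.79, adjusted p = 0.00262), with 1.51 from its other probe set. The sarcomere gene Zasp66 had a log2 difference of 1.52 (adjusted p = 0.0209), lost without migratory replicates 2 or 3 or nonmigratory replicate 3. Hemocyte genes summed to 1563 to 1873 in migratory and 1054 to 1242 in nonmigratory cells, with 6 and 5 of 13 above the absent control level. Of 6 tested, the prophenoloxidase gene PPO2 was called higher (log2 1.37, adjusted p = 0.0363, median of the list 0.54), but its other probe set gave -0.68 and the call was lost in 11 of 24 fits.

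None of 26 tested germline genes of 30 measured was called (median 0.09), with sums of 4587 to 5527 in mutant migratory and 4236 to 4920 in mutant nonmigratory cells, which overlapped. The lowest p belonged to grk (at least 1.59-fold higher, adjusted p = 0.107), which encodes the oocyte ligand of the EGF receptor, and to the RNA transport gene BicD (log2 0.37, adjusted p = 0.116). None of 14 tested follicle cell genes of 16 measured was called (median 0.14), with sums of 60734 to 71512 in migratory and 59565 to 65437 in nonmigratory cells and 13 of 16 above the absent control level in each. The transcription factor gene tj had 357.1, 636.8 and 255.6 in migratory and 581.5, 804.9 and 493.9 in nonmigratory cells (log2 -0.65, adjusted p = 0.159), which overlapped, and cas was at least 1.29-fold lower without being called (adjusted p = 0.145). None of 5 tested fat body genes of 7 measured (median 0.11) and none of 3 tested neuron genes of 10 measured (median 0.40) was called. Lowest in p were the fat body gene Lsp2 (at least 1.90-fold lower, adjusted p = 0.0552), which encodes a storage protein, and the neuron gene ChAT (log2 0.86, adjusted p = 0.435), which encodes choline acetyltransferase. The means of the neuron gene elav lay below the absent control level in both mutant fractions. Summed fat body signals were 453 to 587 in migratory and 474 to 661 in nonmigratory cells, and neuron signals 431 to 622 in migratory and 362 to 556 in nonmigratory cells. Above the absent control level were 4 of 7 fat body genes in mutant migratory and 5 in mutant nonmigratory cells, and 2 of 10 neuron genes in each. Of the 30 germline genes 24 exceeded it in mutant migratory and 25 in mutant nonmigratory cells.

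**Figure D4:**
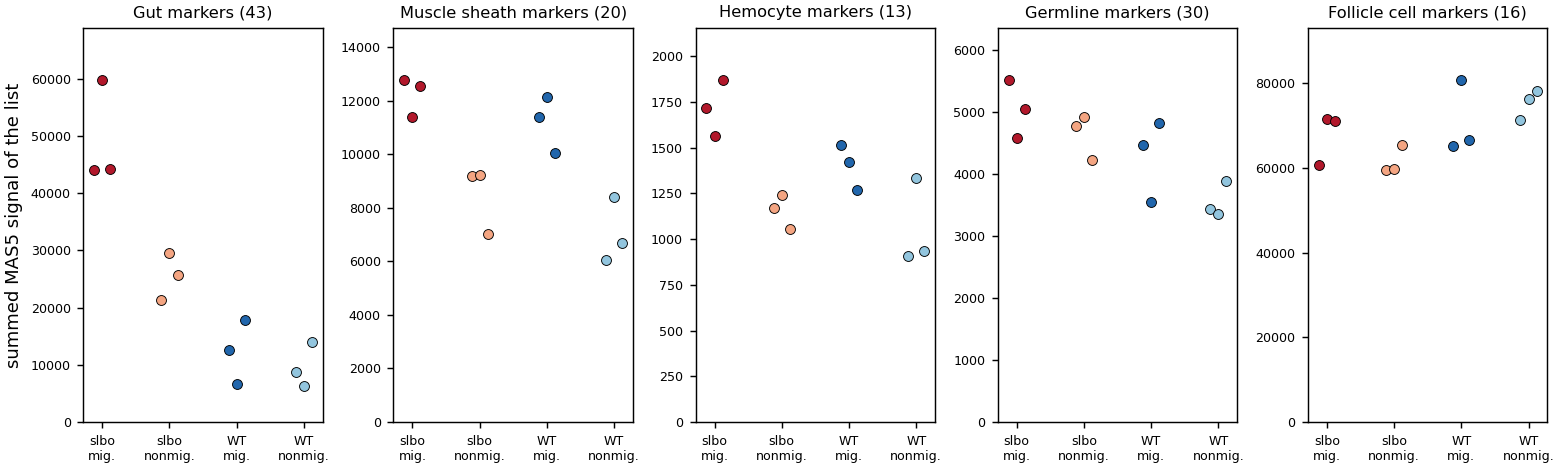
Summed MAS5 signal of 5 marker lists (number of measured genes in parentheses) on each array, for slbo migratory, slbo nonmigratory, WT migratory and WT nonmigratory cells, axes starting at 0. The mutant fractions do not overlap for gut, muscle sheath and hemocyte genes and overlap for germline and follicle cell genes.

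The fraction differences of wild type were then followed into the mutant, a comparison that shares no array between the genotypes, although both use the same estimate of spread for a feature. In wild type 825 features were called (9.17%), a count that was 450 without wild-type nonmigratory replicate 2, 517 without migratory replicate 1 and 536 without migratory replicate 3. Of 383 features called higher in wild-type migratory cells (4.26% of all), 161 were also called higher in the mutant (42.0%), and 366 had the same sign. Of 442 called lower in wild type (4.91%), 271 were called lower in the mutant (61.3%), and 426 had the same sign. Thus 432 features kept call and direction, and 1 feature was called in opposite directions. The median difference of the 383 features was 0.51 in the mutant and 0.85 in wild type, and that of the 442 features was -0.69 in the mutant and -0.84 in wild type. Chosen the other way round, the 334 features higher in the mutant had a median of 1.0 in the mutant and 0.64 in wild type, with 161 called in both (48.2%). The 467 features lower in the mutant had -0.81 in the mutant and -0.65 in wild type, with 271 called in both (58.0%). In each case the genotype used for choosing had the larger median, so these medians do not show which genotype had the larger differences. Among the wild-type differences of at least 2-fold, 79 of 138 higher features (57.2%) and 97 of 163 lower features (59.5%) were called in the mutant. The number called in both and in the same direction was 252 without mutant nonmigratory replicate 1, 278 without mutant nonmigratory replicate 2 and 273 without wild-type nonmigratory replicate 2.

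The largest wild-type differences illustrate both outcomes. Beside yellow-k, goe and Cda5, which were called in both genotypes, the higher genes included nahoda, at least 2.01-fold higher in the mutant (adjusted p = 0.00543) and at least 2.17-fold in wild type. The ABC transporter gene osy had 672.7, 826.1 and 754.2 in mutant migratory and 262.4, 232.5 and 223.5 in mutant nonmigratory cells (log2 1.62, SE 0.262, adjusted p = 0.00181), and the wild-type difference was 2.40. Its other probe sets gave 0.85 and 0.34 in the mutant. Vajk3 had 14.1, 12.8 and 26.2 in mutant migratory and 7.6, 13.4 and 13.7 in mutant nonmigratory cells, all within the absent control level, against 92.7, 44.5 and 118.8 in wild-type migratory and 6.8, 4.4 and 1.9 in wild-type nonmigratory cells. No fold is given for Vajk3 in the mutant, and in wild type it was at least 1.74-fold higher.

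Of the lower genes, Shmt, Irp-1B and vkg were called in both genotypes. The gene l(1)G0020 had 15, 19.5 and 19.9 in mutant migratory and 108.0, 240.4 and 32.8 in mutant nonmigratory cells, at least 2.16-fold lower but not called (adjusted p = 0.0712). GstE14, a glutathione transferase of ecdysone synthesis, had 13.7, 15.2 and 13.3 in mutant migratory and 12.9, 14 and 18.5 in mutant nonmigratory cells, against 32.3, 6.4 and 14.2 in wild-type migratory and 106.4, 145.1 and 84.0 in wild-type nonmigratory cells. Both mutant fractions were thus at the absent control level, and only the wild-type nonmigratory arrays were above it. The cystathionine beta-synthase gene Cbs had 84.9, 26.6 and 71.5 in mutant migratory and 100.7, 103.6 and 70.0 in mutant nonmigratory cells, which overlapped (log2 -0.63, SE 0.398, adjusted p = 0.381), and in wild type, where its migratory arrays averaged below the absent control level, it was at least 3.15-fold lower.

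**Figure D5:**
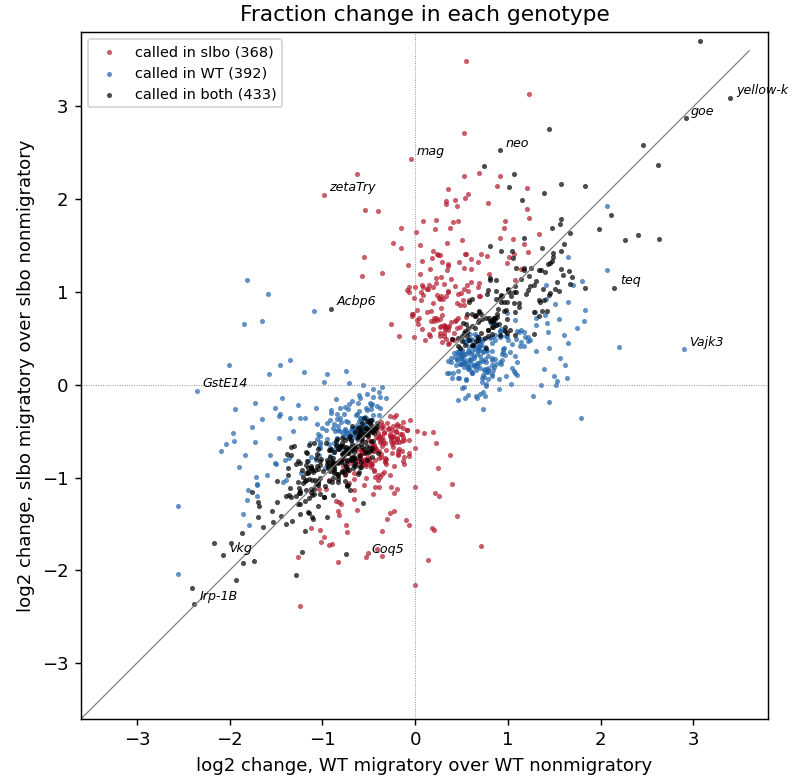
Log2 difference of migratory over nonmigratory cells in the slbo mutant (vertical axis) against wild type (horizontal axis) for features called in at least 1 genotype, with the line of equality. Black points were called in both (433), red points in the mutant (368) and blue points in wild type (392). Most lie in the quadrants of equal sign, with yellow-k, goe and vkg near the line.

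No feature passed a direct test of whether the fraction difference itself differed between mutant and wild type (0 of 9000, 0.0%, limma). At an unadjusted p below 0.05 there were 605 features (6.72%), and the lowest adjusted p was 0.214. Without wild-type migratory replicate 3 the count was 2. For a feature of median error the 95% interval of this difference reached 0.91 log2 units to either side, so that smaller differences were not resolved. Of the 5 features with the lowest p, CG18404 had 356.0, 325.6 and 292.9 in mutant migratory and 64.8, 87.2 and 101.3 in mutant nonmigratory cells, against 97.9, 39.8 and 58.7 in wild-type migratory and 94.0, 87.5 and 70.6 in wild-type nonmigratory cells. The mutant migratory arrays stood apart from the other 3 groups, and the contrast was 2.27 larger in the mutant (SE 0.402, unadjusted p = 5.10e-05, adjusted p = 0.214). A probe set with no gene name in the annotation used had a contrast 1.62 larger in the mutant (log2 2.36 in the mutant and 0.74 in wild type, adjusted p of the difference = 0.214). CG11200 had 855.0, 743.6 and 737.5 in mutant migratory and 1358.7, 1334.0 and 1259.8 in mutant nonmigratory cells, and its contrast of -0.76 in the mutant stood against 0.38 in wild type (adjusted p of the difference = 0.214). The serine protease gene teq had 558.2, 651.9 and 668.0 in mutant migratory and 280.2, 333.3 and 286.4 in mutant nonmigratory cells (log2 1.04, adjusted p = 0.000953), against 2.15 in wild type (adjusted p of the difference = 0.254). Its other 3 probe sets gave 0.37, 0.09 and -0.66 in the mutant.

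Acbp6, which encodes an acyl-CoA binding protein, was the feature called in opposite directions. Its signals were 208.2, 191.6 and 240.8 in mutant migratory and 99.3, 117.5 and 137.7 in mutant nonmigratory cells (log2 0.82, SE 0.230, adjusted p = 0.0374). In wild type they were 66.6, 51.3 and 72.9 in migratory and 143.1, 98.6 and 135.9 in nonmigratory cells (log2 -0.90, adjusted p = 0.0222). The fractions did not overlap in either genotype, and the contrasts differed by 1.72, with an adjusted p of 0.214. Of 40 tested gut genes 10 had an unadjusted p below 0.05 for the difference between genotypes, against 6.72% of all features, and none passed after adjustment over all features.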

How the data were processed

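The authors deposited linear signal intensity values, made with MAS5 per the submitters' processing notes (version not given in the sources used here) and scaled to a trimmed mean of 150.03 on each array. Detection calls were not used here. The number of arrays limits the precision. The 14010 probe sets comprised 44 controls, 12442 with 1 gene in the platform annotation, 327 with several and 1197 with none. They stood for 10843 genes, and 1209 genes with several probe sets were read from the brightest of them on average. An amount of 5% of the trimmed mean (7.50) was added before the log2 transformation. Of 12367 features, the 9000 above the 40th percentile of all values on at least 3 arrays were tested, 7938 genes and 1062 unnamed probe sets.

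All 12 arrays, biological repeats per the labels, entered a single fit in limma 3.58.1 (R 4.3.3), with a mean for each of the 4 groups and a prior variance that follows the signal, and p-values were adjusted by Benjamini-Hochberg over all features. The difference between genotypes is the mutant contrast minus the wild-type contrast. The fit was tested on simulated data. For a group no brighter on average than 39.2, the level that marks the top 5% of the 23 control probe sets for absent transcripts, a fold is a bound on the log2 scale with the added amount, never above the fitted fold. Python 3.11.15 with numpy 2.4.6, pandas 2.3.3 and matplotlib 3.10.9 made tables and figures.

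Named genes were slbo, the 12 largest called differences in each direction between the mutant fractions among genes named by more than a CG or CR number, without overlap and brighter than the median, up to 4 called members of each list with the lowest p (2 where none was called), the 5 lowest p for the difference between genotypes, and the 6 largest wild-type differences in each direction. Other genes named were picked out after their values were seen. The comparison and the 25 gene lists were chosen with earlier results of these data known. The fit was repeated after quantile normalization or median centring, with no filter or one at the 60th percentile, with 1% or 20% added, with no trend, with array weights, on means over probe sets, on the compared groups alone, with a replicate block, without each array in turn and, chosen after seeing the data, with the GAPDH ratio as a covariate.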

Additional observations from a re-analysis of the deposited data

Results flagged for a closer look

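Acbp6 is singled out because its fractions lay apart in opposite directions in the genotypes. Its contrast of migratory over nonmigratory cells was 0.82 in the mutant and -0.90 in wild type, a difference of 1.72 on the log2 scale (SE 0.325, 95% interval from 1.03 to 2.42). All 3 mutant migratory arrays were above all 3 mutant nonmigratory arrays, and all 3 wild-type migratory arrays were below all 3 wild-type nonmigratory arrays. The difference had an unadjusted limma p of 9.52e-05 and an adjusted p of 0.214 over 9000 features. The mutant call was lost in 8 of 24 alternative fits, with adjusted p between 0.0130 and 0.428. Of the 9000 features, 34 did not overlap between fractions and pointed in opposite directions in the genotypes, while 1067 did not overlap and pointed the same way. With 3 arrays per group lack of overlap was common, at 29.8% of features between the mutant fractions. How many of the 34 noise alone would give was not worked out, so membership in this class does not make Acbp6 unusual.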

How the results depend on the processing

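Every one of the 76 called genes among the 93 named kept its direction in all 24 alternative fits, which was largely fixed in advance. Leaving out 1 array cannot reverse a gene whose mutant fractions do not overlap. Leaving out a wild-type array does not change the mutant difference at all. Of the 76 genes, 58 kept the call in every fit other than the one with the GAPDH ratio, which ended 35 of the 76 calls. Between the mutant fractions 801 features were called in the fit reported, 437 without the variance trend and 154 with the GAPDH 5' to 3' ratio as a covariate, which was chosen after seeing the data. Leaving out 1 array gave 373 to 965. Of the features called in both genotypes in the same direction, 432 in the fit reported, 215 were left without the trend and 6 with the GAPDH ratio, when 6 were called in wild type, and 252 to 537 when 1 array was left out. The cause was not tested, beyond the ratio differing between wild-type fractions without overlap. For the difference between genotypes limma called 0 features in the fit reported and in every alternative that could give a value (the fit to the compared groups alone could not), except for 2 without wild-type migratory replicate 3 (0 to 2 when 1 array was left out). Mutant samples with the same replicate number did not deviate together (r from -0.03 to 0.02, against -0.055 to 0.074 for different numbers). In wild type r was 0.03 to 0.11 for the same number and -0.079 to 0.023 for different numbers, a slight shared deviation. With the replicate number as a block 855 features were called between the mutant fractions, 375 higher and 480 lower, 478 in both genotypes and 0 for the difference. Median centring gave 241 higher and 415 lower, quantile normalization 358 and 529, and no setting moved the median over all features by more than 0.05 log2 units. The medians of the border cell migration, Notch pathway, ecdysone response, cytosolic ribosomal protein, one-carbon, antimicrobial, germline, fat body, follicle cell and neuron lists changed sign in at least 1 fit. Where a signal lies near the absent controls, its difference is limited by background.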

Other observations

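Some of the largest differences between the mutant fractions belong to genes known here by a CG number only, and they were picked out after their values were seen. CG5644 was at least 9.05-fold higher in mutant migratory cells (adjusted p = 1.41e-05), with a log2 difference of 3.07 in wild type. CG11911 was at least 7.34-fold higher in the mutant (adjusted p = 0.00194) and at least 1.17-fold higher in wild type. CG12057 averaged 759 in mutant migratory and 84.5 in mutant nonmigratory cells (log2 3.49, adjusted p = 0.00478), against 68.7 in wild-type migratory and 38 in wild-type nonmigratory cells. CG6231 had a log2 difference of 2.75 in the mutant and 1.44 in wild type. Among genes with other symbols, Liprin-alpha was at least 1.27-fold lower in mutant migratory cells (adjusted p = 0.00810), with means of 8.7 in mutant migratory and 55.3 in mutant nonmigratory cells, against 45.4 in wild-type migratory and 45.5 in wild-type nonmigratory cells.

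Called genes were also looked up among neighbours in the Release 6 plus ISO1 MT assembly. In 55 cases both of 2 adjacent protein-coding genes were called between the mutant fractions, 19 times both higher, 24 times both lower and 12 times in opposite directions. Among these were the chorion genes Cp7Fc, Cp36 and Cp38 (log2 1.14, 0.98 and 0.89), the collagen IV genes vkg and Col4a1, the genes mex1 (at least 1.66-fold higher) and yellow-k, and the genes CG8997 (at least 4.66-fold higher), CG7916 (log2 2.25) and CG7953 (log2 1.68). Related neighbours may share probe binding. With 8.9% of all features called, some adjacent pairs would be called anyway. Their expected number was not worked out, so the 55 cases do not show clustering.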
